A study of Gallus gallus with 6 samples.

Results

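The genes described here are 10 chicken genes of intermediate filaments, the nuclear lamina and the desmosome, chosen by symbol: VIM, DES, NES, KRT7, KRT14, KRT18, LMNA, LMNB1, LMNB2 and PKP2. A probe set was taken where the array annotation gave it a member's symbol and no other. Of the 10 members, 9 were measured, by 11 probe sets, out of 13009 genes measured in all. KRT18 had no probe set under that rule and was not analysed here. DES and LMNB1 had 2 probe sets each, and the brighter one, by its mean over all arrays, stands for the gene.

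Intermediate filaments are ropes of coiled-coil proteins that give cells and nuclei mechanical strength. In the cytoplasm they are built of vimentin, desmin, nestin or keratins according to the cell type, and keratins form them only as pairs of a type I and a type II chain. Lamins are the nuclear branch of the family: B-type lamins line the nuclear envelope of nearly all cells, while A-type lamins are low in many embryonic cells and accumulate as tissues differentiate and stiffen. Plakophilin 2 is no filament protein. It is an armadillo protein of the desmosome, the junction to which keratin or desmin filaments are anchored in epithelia and heart, and it is also found at cadherin junctions of some mesenchymal cells.

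Both cell types came from chicken embryos and were grown in culture: primordial germ cells (PGC), from which the gametes descend, and embryonic fibroblasts (CEF). Each of 3 PGC samples started from the blood of 20 embryos at day 2.5 and was kept in knockout DMEM, with human bFGF, a fibroblast growth factor, at 10 ng/ml. The 3 CEF samples had been grown to passage 2 from day 6.5 embryonic bodies without internal organs and limbs, 5 embryos each, in DMEM with 10% serum. The cell types thus also differed in embryonic age and in medium, and no sorting step is described in the labels, so that each culture can hold more than one kind of cell. RNA had been taken from 1500000 PGC or 6000000 CEF per sample and hybridised to one-colour Affymetrix chicken arrays. In such bulk samples, fewer cells of a type and less RNA per cell cannot be told apart.

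Levels are the deposited log2 expression values, on which a step of 1 is a 2-fold change. Differences are PGC minus CEF with the standard error from limma, a linear model fitted to all 38439 probe sets that are not array controls, and its p-values are adjusted by Benjamini-Hochberg over all of them. A gene was called where the adjusted p was under 0.05 and the difference at least 2-fold. A background level, set from 687 probe sets for sequences of other organisms, averaged 1.68 in PGC and 1.97 in CEF. Directions of gene lists depend on how arrays are scaled, so where it matters the counts are also given after control scaling. In that scaling, arrays were set equal on bacterial transcripts added as controls, which moved all differences towards PGC. Gene lists are counted by genes, but the shares beside them after control scaling are of all probe sets, as none was computed by genes. With the deposited values 32.5% of genes and 24.6% of probe sets were called. Most markers lay on the side that the labels name, but their lists were chosen with earlier results of these data known and are no independent test. All 8 measured germ cell markers were higher in PGC. Their summed linear level was 8567 to 8743 on the PGC arrays and 28.7 to 41.2 on the CEF arrays, with EPCAM also counted among epithelium markers. Of 11 fibroblast markers 10 were higher in CEF, with 595 to 649 in PGC and 19080 to 23617 in CEF. The median SD among replicates over all probe sets was 0.0953 in PGC and 0.203 in CEF.

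Of the 9 measured members, 0 were called towards PGC, 6 towards CEF (KRT7, PKP2, KRT14, VIM, LMNA and NES) and 3 in neither direction (DES, LMNB1 and LMNB2). Over all genes, 17.6% were called towards PGC and 14.9% towards CEF, 32.5% in either direction. Counts of the partner and marker lists stand beside these same shares. Of the 3 members that were not called, LMNB1 had an adjusted p of 0.020 from limma and lay towards PGC, but at 1.25-fold it was under the 2-fold minimum. It was the 1 member with an unadjusted p under 0.05 in that direction, and limma's treat, a test against a 2-fold difference, called 0 there as well. The median difference of the members was -2.43, and that of all genes was -0.05. By single probe sets 6 of 11 were called, against 24.6% of all probe sets. On 7 of the 11 probe sets the arrays of the 2 cell types did not overlap, as was the case for 59.8% of all probe sets.

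**Figure D1:**
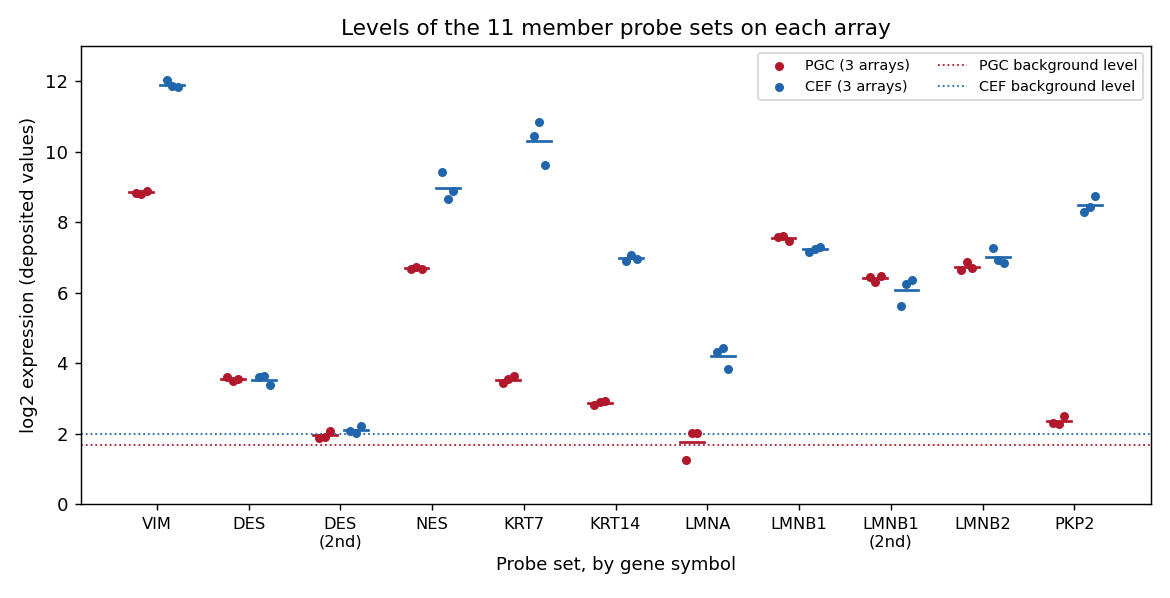
Deposited log2 expression (vertical axis) of the 11 member probe sets (horizontal axis) on each of 3 PGC arrays (left, red) and 3 CEF arrays (right, blue), with group means as bars and the background levels as dotted lines; "2nd" marks the dimmer probe set of a gene. VIM, NES, KRT7, KRT14, LMNA and PKP2 lie higher on all CEF arrays, while DES, LMNB1 and LMNB2 lie close together in both cell types.

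VIM encodes vimentin, the type III filament protein of mesenchymal cells and of many cultured and migrating cells. Its log2 level was 8.84, 8.81 and 8.88 in PGC, against 12.03, 11.85 and 11.84 in CEF. The CEF arrays all lay above the PGC arrays, and in both cell types the gene was far above background. The difference was -3.06 ± 0.06 (SE, limma adjusted p = 7.6e-09), or 8.35-fold higher in CEF (95% confidence interval 7.56 to 9.23). The CEF mean of 11.90 was above that of cre, a control transcript added in hybridisation, which averaged 11.33 in CEF, and saturation at this brightness was not tested.

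NES encodes nestin, a large filament protein that co-assembles with vimentin in neural, muscle and mesenchymal progenitors, and for the chicken gene RefSeq lists the further name paranemin. It read 6.67, 6.72 and 6.68 in PGC, against 9.41, 8.64 and 8.88 in CEF. All CEF arrays were higher, with CEF replicate 1 above the other two. The gene was 4.89-fold higher in CEF (3.70 to 6.47), with a difference of -2.29 ± 0.18 and a limma adjusted p of 9.3e-06. The SD among replicates was 0.0286 in PGC and 0.394 in CEF, a ratio of 13.8 and the highest among the 11 member probe sets.

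DES encodes desmin, the filament protein of muscle cells, and stayed low in both cultures. Its brighter probe set read 3.60, 3.50 and 3.56 in PGC and 3.59, 3.62 and 3.38 in CEF. These ranges overlapped, and the difference was 0.02 (95% interval -0.29 to 0.34, limma adjusted p = 0.90). The dimmer probe set averaged 1.96 in PGC and 2.10 in CEF, close to the background level, and differed by -0.14 (-0.43 to 0.14).

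Markers of muscle were nevertheless partly higher in CEF. Of 13 measured muscle genes 1 was higher in PGC and 5 were higher in CEF, and their summed linear level was 187 to 198 on PGC arrays and 1258 to 1579 on CEF arrays. After control scaling 2 were called towards PGC and 1 towards CEF, against 40.5% and 4.58% of all probe sets. The gene higher in PGC with the deposited values was TNNC1, at 6.10 in PGC and 3.97 in CEF. Of the 5 higher in CEF, TNNT2, TNNC2 and MYL1 were dim there, at 2.72, 2.63 and 2.08, and under background in PGC. These genes were named after their values were seen. One of the 5, the cardiac actin ACTC1, came to a difference of -0.93 once CEF replicate 3 was left out. ACTA1, the skeletal muscle actin, made up most of the CEF sum, at 5.21 ± 0.10 in PGC and 10.26 ± 0.18 in CEF (SD, n = 3). MYOD1, the factor that defines the muscle lineage, was near background at 1.98 ± 0.30 in PGC and 2.13 ± 0.30 in CEF. The part of muscle cells in the member differences was not tested.

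KRT7, a type II keratin of simple epithelia, had the largest difference of the members. Its levels were 3.43, 3.54 and 3.63 in PGC, against 10.44, 10.84 and 9.62 in CEF. No array overlapped, and CEF replicate 3 was the lowest of the CEF arrays. The gene was 109-fold higher in CEF (71.1 to 167), with a difference of -6.77 ± 0.27 (limma adjusted p = 2.1e-07), and 0.239% of all probe sets had a larger absolute difference. The SD was 0.0995 in PGC and 0.624 in CEF. The suffix of its probe set marks probes shared by several transcripts, so that a related transcript could add to the signal.

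KRT14, a type I keratin of the basal layer of stratified epithelia, was also higher in CEF. It read 2.81, 2.90 and 2.92 in PGC, against 6.91, 7.07 and 6.95 in CEF. The replicates lay close together in both cell types, and the groups did not overlap. The difference was -4.10 ± 0.12 (limma adjusted p = 5.0e-08), or 17.1-fold (14.1 to 20.8).

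Few other keratins were called. The annotation named 15 keratin genes, on 23 probe sets with a single symbol. Of these 23, 0 were called towards PGC, 3 towards CEF and 20 in neither direction. Over all probe sets 14.6% were called towards PGC and 10.1% towards CEF, so the keratin count towards CEF was near that share. One keratin probe set, of KRT222 and under background in both cell types, lay towards PGC at an unadjusted p under 0.05 by limma. By treat 0 were called there. After control scaling 4 keratin probe sets were called towards PGC and 2 towards CEF, against 40.5% and 4.58% of all probe sets. The keratin median then turned to 0.81. With the deposited values the median keratin probe set differed by -0.16, and 11 of the 23 lay under background in both cell types. Apart from KRT7 and KRT14 the called one was a probe set of KRT23, named here after its values were seen, with a difference of -1.07, and leaving out CEF replicate 3 ended its call at -0.90. In PGC it lay under background, which made it at least 1.87-fold higher in CEF. The 3 probe sets with several keratin symbols were not called.

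Pairing partners of KRT7 and KRT14 could not all be followed. KRT19, like KRT18 a type I partner of simple epithelial type II keratins, matched no probe set with a single symbol and was not analysed here. KRT5, the usual type II partner of KRT14, had its brightest probe set at 1.99 in PGC and 2.12 in CEF, with a difference of -0.14 (limma adjusted p = 0.47). Both levels were near background, and the other probe sets of KRT5 lay under it in both cell types. In the RefSeq gene order KRT75 and KRT6A lie near KRT7 on one side and KRT80 on the other. These neighbours differed by -0.27, -0.06 and -0.37, and none of them was called.

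**Figure D2:**
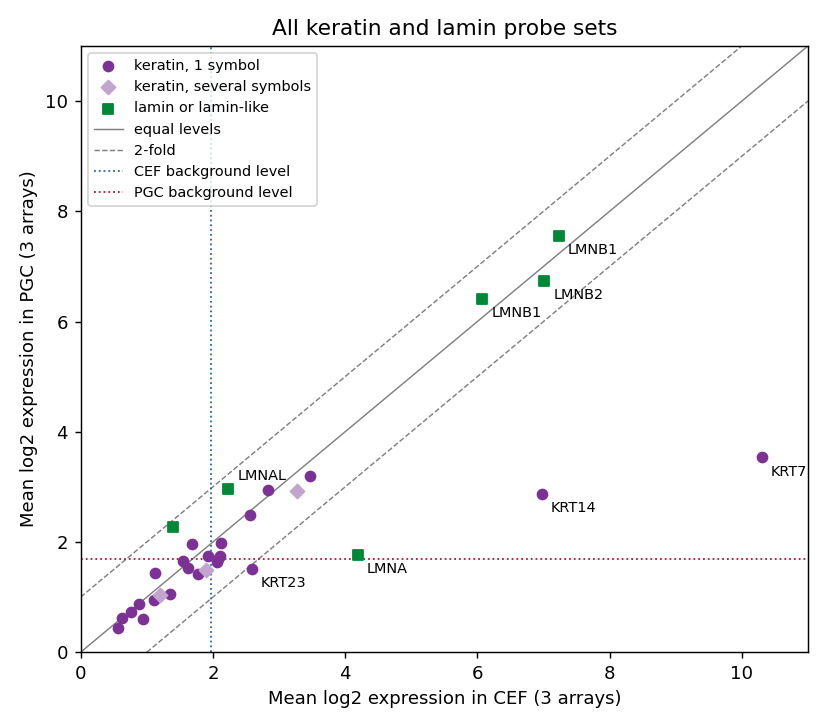
Mean log2 expression in PGC (vertical axis) against CEF (horizontal axis), each over 3 arrays, for every probe set annotated to a keratin (purple, paler where it has several symbols) or to a lamin or lamin-like gene (green), with lines for equal levels and 2-fold differences and dotted background levels. KRT7, KRT14, LMNA and, by a little, KRT23 lie beyond the 2-fold line towards CEF, and both B-type lamins lie between the 2-fold lines.

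Some markers of epithelium lay the other way from KRT7 and KRT14. Of 9 measured epithelium genes 4 were called towards PGC, 1 towards CEF and 4 in neither direction, with a median of 0.46. After control scaling 6 were called towards PGC and 0 towards CEF, against 40.5% and 4.58% of all probe sets. Their summed linear level was 6033 to 6260 in PGC and 135 to 147 in CEF. CLDN1 and EPCAM, the latter also counted as a germ cell marker, weighed most in that PGC sum. CLDN3 (-0.01), CLDN4 (-0.19) and ESRP1 (0.45) were not called with the deposited values. ESRP2, the relative of ESRP1, was called towards PGC, where it was at least 102-fold higher (8.15 ± 0.12). It averaged 8.65 in PGC and 0.50 in CEF, under background there. The junction protein claudin CLDN1 was at 12.05 ± 0.05 in PGC and 3.02 ± 0.23 in CEF, and the adhesion molecule EPCAM was at 10.41 ± 0.02 in PGC and at 0.87 ± 0.23 in CEF, under the CEF background (SD, n = 3). CDH1, the epithelial cadherin, averaged 5.22 in PGC and 2.13 in CEF, just above background there. The protease ST14 averaged 4.01 in PGC and 5.40 in CEF, and its call towards CEF with the deposited values ended after control scaling. TP63, a factor of basal epidermal cells, averaged 5.08 in PGC and 4.62 in CEF and was not called with the deposited values.

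PKP2 was, like KRT7 and KRT14, higher in CEF. It read 2.31, 2.28 and 2.49 in PGC, against 8.30, 8.44 and 8.74 in CEF. The CEF arrays all lay far above the PGC arrays, and PGC levels were a little above background. The gene was 70.1-fold higher in CEF (55.2 to 88.9), with a difference of -6.13 ± 0.15 (limma adjusted p = 1.7e-08), and 0.411% of probe sets differed more.

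Other proteins of the desmosome and of the armadillo and catenin families were called in both directions, in a balance that depended on the scaling. Of 19 measured genes of that list 4 were called towards PGC, 4 towards CEF and 11 in neither direction, with a median of -0.04. Over all genes 17.6% were called towards PGC and 14.9% towards CEF, so these counts were not far from those shares. After control scaling 9 of the list were called towards PGC and 2 towards CEF, against 40.5% and 4.58% of all probe sets, with no share by genes computed. DSP, desmoplakin, which ties filaments to the desmosomal plaque, read 5.33, 5.44 and 5.23 in PGC. On all 3 CEF arrays it carried an identical deposited value of 1.49 (SD 0), under their background. It was thus at least 10.3-fold higher in PGC (3.84 ± 0.13, limma adjusted p = 8.8e-08), opposite to PKP2. CTNNA3, an alpha-catenin that binds PKP2 in the heart, was at least 36.4-fold higher in PGC, and the neural catenins CTNNA2 (2.54 ± 0.10) and CTNND2 (2.33 ± 0.13) were higher there as well. As a mean of probe sets CTNND2 came to 1.64.

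Among desmosomal cadherins, DSG4 was higher in CEF (-2.16 ± 0.31), where it ranged from 3.54 to 4.84, against 1.63 to 2.12 in PGC. DSG2 averaged 3.28 in PGC and 2.77 in CEF, and DSC1 averaged 1.92 in PGC and 2.29 in CEF, neither of them called. JUP, plakoglobin, which links desmosomal cadherins to DSP and also serves adherens junctions, averaged 7.40 in PGC and 9.55 in CEF (-2.15 ± 0.09). Its other probe set differed by 0.23 and was not called, and the mean of both, at -0.96, was under the 2-fold minimum.

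Differences of the other plakophilins were smaller than that of PKP2, which was not tested between genes. PKP1 and PKP3 were not called, with differences of -0.65 and -0.19. PKP4, which serves both kinds of junction, differed by -1.04, and fell short of 2-fold without PGC replicate 2 (-0.99), without CEF replicate 1 (-0.94) or as a mean of probe sets (-0.59). PKP4 was named after its values were seen, as were DSG2, DSC1, PKP1 and PKP3. The alpha-catenin CTNNA1 was called (-1.09 ± 0.16), but 3 of its 4 probe sets were not, with differences up to 0.55. The mean of all 4 was -0.069. CTNNA1 also came to -0.93 without CEF replicate 3. Beta-catenin, CTNNB1, was bright in both cell types, at 10.04 in PGC and 10.67 in CEF, and the delta-catenin relative ARVCF (0.36) and the desmosome-associated PNN (0.06) were likewise not called.

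**Figure D3:**
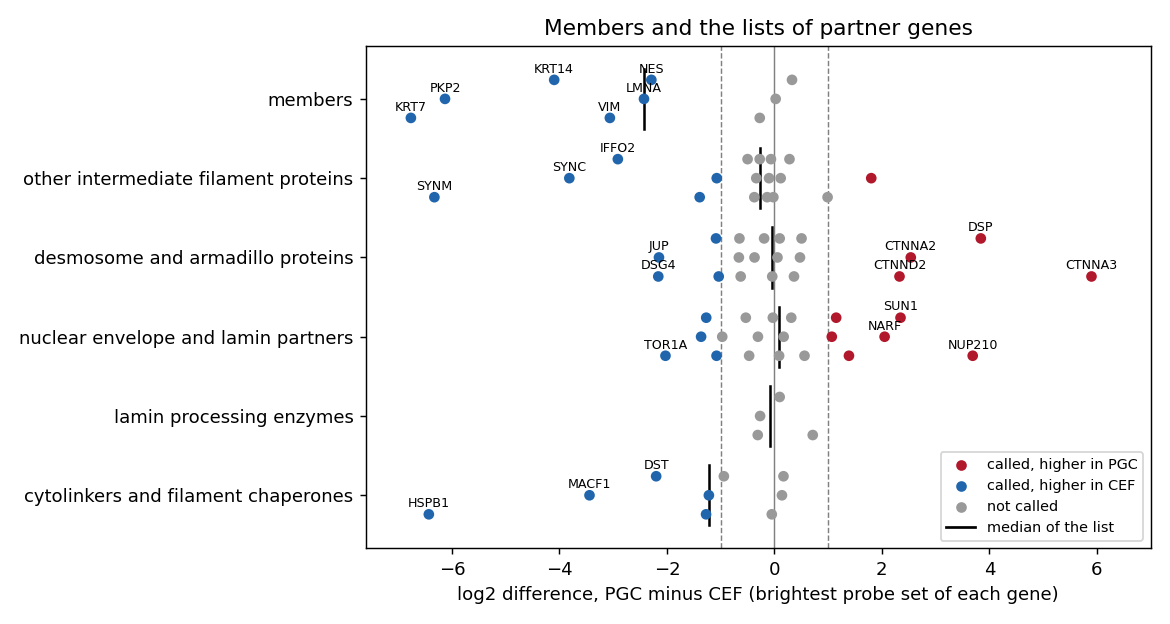
Difference PGC minus CEF on the log2 scale (horizontal axis) for the members and for 5 lists of partner genes (rows); each point is a gene by its brightest probe set, red where called higher in PGC, blue where called higher in CEF and grey where not called, and the black bar is the median of the row. PKP2 and DSP lie on opposite sides, and the members' median of -2.43 lies further towards CEF than that of any list shown.

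Of 17 other filament proteins measured, 1 was called towards PGC, 5 towards CEF and 11 in neither direction. Over all genes the shares were 17.6% towards PGC and 14.9% towards CEF, against which the list was not tested. After control scaling 4 of the list were called towards PGC and 3 towards CEF, against 40.5% and 4.58% of all probe sets. SYNM, synemin, which co-assembles with vimentin or desmin, read 1.02, 0.72 and 0.60 in PGC, all under background, against 6.83, 7.35 and 7.14 in CEF. Its fold towards CEF was at least 42.9 (-6.33 ± 0.18, limma adjusted p = 4.2e-08). Syncoilin, SYNC, a partner of desmin in muscle, was 14.1-fold higher in CEF (-3.82 ± 0.14), and the filament family proteins IFFO2 (-2.91 ± 0.09) and IFFO1 (-1.39) were higher there too. IFFO1 was named after its values were seen, and the mean of its probe sets was -0.76. With KRT23 these made up the 5.

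The member of that list that was higher in PGC was NEFM, the medium neurofilament chain of neurons. It read 4.83, 4.32 and 4.29 in PGC, against 2.64, 2.64 and 2.74 in CEF (1.80 ± 0.17). Of its 3 probe sets 1 was called, and their mean, at 0.87, was under the minimum. The light chain NEFL (-0.50) and the keratins KRT75 (-0.27) and KRT24 (0.12) were the brightest that were not called.

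Measured proteins that link filaments together or protect them numbered 9, with a median of -1.22. Of these, 0 were called towards PGC and 5 towards CEF, against 17.6% and 14.9% of all genes. By limma 0 lay towards PGC at an unadjusted p under 0.05, and by treat 0 were called there. After control scaling, however, 2 were called towards PGC and 3 towards CEF, against 40.5% and 4.58% of all probe sets. HSPB1, a small heat shock protein that binds filaments, read 3.33, 3.14 and 3.34 in PGC, against 9.48, 9.91 and 9.71 in CEF, an 86.3-fold difference (-6.43 ± 0.14, limma adjusted p = 8.8e-09). The giant linkers MACF1 (-3.44 ± 0.17), which joins actin to microtubules, and DST (-2.20 ± 0.18), dystonin, were higher in CEF as well. Of 13 probe sets of MACF1, 3 were called, all towards CEF, and the mean of all 13 was -0.81. The mean for DST was -1.13. FAM83H (-1.27), which organises keratins, and the chaperone CRYAB, named after its values were seen, completed the 5. CRYAB lay under background in PGC and was at least 2.13-fold higher in CEF. BAG3, a co-chaperone, missed the minimum at -0.94 and passed it without CEF replicate 2 (-1.01), while NUDC (0.17) and the keratin-binding TCHP (0.14) were not called.

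Of the lamin members, LMNA alone was called with the deposited values, by a single probe set. LMNA, the A-type lamin, read 1.25, 2.02 and 2.02 in PGC, against 4.32, 4.42 and 3.84 in CEF. All CEF arrays were higher, and the PGC mean of 1.77 was at the edge of the background level, with PGC replicate 1 under it. PGC replicates 2 and 3 carried an identical deposited value, as they did for 354 probe sets (0.921%). The gene was 5.38-fold higher in CEF (3.62 to 7.99), with a difference of -2.43 ± 0.25 (limma adjusted p = 5.6e-05). RefSeq also lists LMNA as an older name of LMNB2, and the probe set used here is annotated to the lamin A gene.

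The B-type lamins were well above background in both cultures. LMNB1 read 7.59, 7.61 and 7.47 in PGC and 7.14, 7.23 and 7.31 in CEF. All PGC arrays were above all CEF arrays by a small margin, and the difference was 0.33 ± 0.10 (95% interval 0.11 to 0.55, limma adjusted p = 0.020), under 2-fold. The second probe set of LMNB1 gave the same difference, 0.33 ± 0.19, with overlapping arrays and an adjusted p of 0.18 from limma. CEF replicate 1 was the lowest there, at 5.63, against 6.23 and 6.36 in the other CEF replicates.

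LMNB2 read 6.64, 6.87 and 6.71 in PGC and 7.27, 6.93 and 6.84 in CEF. The arrays overlapped, and the difference was -0.27 (95% interval -0.59 to 0.04, limma adjusted p = 0.13), and its sign turned to 0.70 when arrays were scaled to bacterial controls. LMNAL, annotated as a lamin-like gene of its own and named here after its values were seen, lay towards PGC on both of its probe sets without reaching 2-fold. Its brighter probe set averaged 2.96 in PGC and 2.24 in CEF, a difference of 0.72 (limma adjusted p = 0.016). The other averaged 2.27 in PGC and 1.39 in CEF, under background there, and was at least 1.23-fold higher in PGC (limma adjusted p = 0.0049).

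Because levels depend on how the arrays were scaled to each other, ratios between 2 members were also taken within each array. There a constant scaling factor of the array cancels. The pairs, and the order within each, were picked after the levels were seen, and that order sets the sign of a shift. The log2 ratio of LMNA to LMNB1 was lower in PGC than in CEF by a shift of -2.75, with -6.33 to -5.44 on the PGC arrays and -3.47 to -2.81 on the CEF arrays. Since LMNA was at the edge of background in PGC, with replicate 1 under it, the size of this shift is uncertain, as is that of the next. The ratio of LMNA to LMNB2 shifted by -2.15, and that of LMNB2 to LMNB1 by -0.60. VIM to NES shifted by -0.77, VIM to LMNB1 by -3.39 and KRT7 to KRT14 by -2.67. In none of the 6 pairs did the arrays of the 2 cell types overlap, and the two-sided exact permutation p was 0.1 for each, before and after adjustment over the 6 pairs, the smallest that 3 against 3 arrays allow. With pairs picked in this way and p at its floor, the shifts only describe these 6 arrays. A ratio also does not show which of the 2 members differed.

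**Figure D4:**
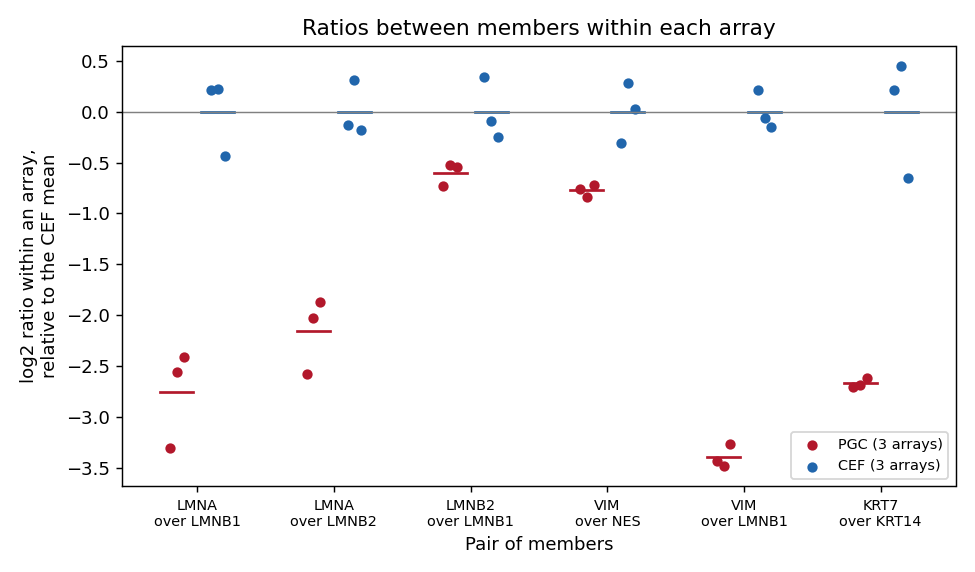
Log2 ratio between 2 members within each array, minus the CEF mean of that pair (vertical axis), for 6 pairs (horizontal axis), with PGC arrays left in red, CEF arrays right in blue and bars for the means of 3 arrays. The shift is -2.75 for LMNA over LMNB1 and -0.60 for LMNB2 over LMNB1. PGC arrays lie below CEF arrays in all 6 pairs, but the order chosen within a pair sets this direction.

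Partners of the lamins at the nuclear envelope were called in both directions. Of 19 measured, 6 were called towards PGC, 4 towards CEF and 9 in neither direction, with a median of 0.09. Over all genes the shares were 17.6% towards PGC and 14.9% towards CEF, against which the list was not tested. After control scaling 10 of the list were called towards PGC and 1 towards CEF, against 40.5% and 4.58% of all probe sets, with no share by genes computed. Towards PGC lay NUP210, a membrane protein of the nuclear pore, at 6.97, 6.96 and 6.78 in PGC, against 3.39, 2.74 and 3.51 in CEF (3.69 ± 0.20, limma adjusted p = 1.4e-06). SUN1, which connects lamins to the cytoskeleton across the envelope, was 5.09-fold higher in PGC (2.35 ± 0.11), and NARF, which binds prelamin A, was 4.14-fold higher (2.05 ± 0.27), although the mean of its probe sets, at 1.00, was at the edge of the 2-fold minimum.

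Towards CEF lay TOR1A, torsin A of the envelope lumen, at -2.03 ± 0.11, though 1 of its 4 probe sets was called and their mean was -0.73. The nesprins SYNE3 and SYNE1 (-1.08), which bind SUN proteins, and the lamin-binding TMEM43 (-1.27) were the others. A further nesprin, SYNE2, was called towards PGC instead (1.15 ± 0.23), at 3.30 in PGC and 2.15 in CEF. SYNE2, LEMD2 (1.07) and NUP153 (1.39), all named after their values were seen, completed the 6 called towards PGC. SYNE3 lay under background in PGC and was at least 2.50-fold higher in CEF. SYNE1, named after its values were seen, came to -0.96 without CEF replicate 3 and to -0.21 as a mean of probe sets. The lamin-associated proteins TMPO (0.09) and LBR (0.31), the B-type lamin receptor, and the pore protein TPR (-0.53) were bright in both cell types and not called.

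The enzymes that farnesylate and trim lamins were not called in either direction, 0 of 4 measured at the 2-fold minimum by limma and 0 by treat. At an unadjusted p under 0.05, 1 lay towards PGC and 1 towards CEF. After control scaling 2 were called towards PGC, against 40.5% of all probe sets. ICMT, which methylates the lamin tail, averaged 8.51 in PGC and 7.80 in CEF (0.71 ± 0.15). ZMPSTE24, the protease that makes mature lamin A, averaged 7.34 in PGC and 7.24 in CEF. The farnesyltransferase subunit FNTA averaged 8.08 in PGC and 8.39 in CEF.

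All 6 called members stayed called towards CEF after the arrays were scaled to the bacterial control transcripts, whose level was lower on PGC arrays by a log2 difference of -0.97. With this scaling the median over all probe sets was 0.89, against -0.09 with the deposited values. Differences then came to -5.79 for KRT7, -5.16 for PKP2, -3.13 for KRT14, -2.09 for VIM, -1.45 for LMNA and -1.32 for NES. LMNB1 became called, higher in PGC, at 1.30, LMNB2 turned to 0.70, and DES came to 1.00, just under the minimum. Over all probe sets 15563 were then called higher in PGC and 1761 in CEF, or 40.5% and 4.58% (45.1% in either direction). With the deposited values the counts were 5597 and 3872, or 14.6% and 10.1%. Of the 11 member probe sets 8 were called after control scaling. By genes, these were 6 of the 9 members towards CEF and LMNB1 towards PGC. The control cre was left out of the scaling and differed by -0.13, at 11.20 in PGC and 11.33 in CEF. The controls thus did not share a common shift, and which scaling is right was not tested.

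**Figure D5:**
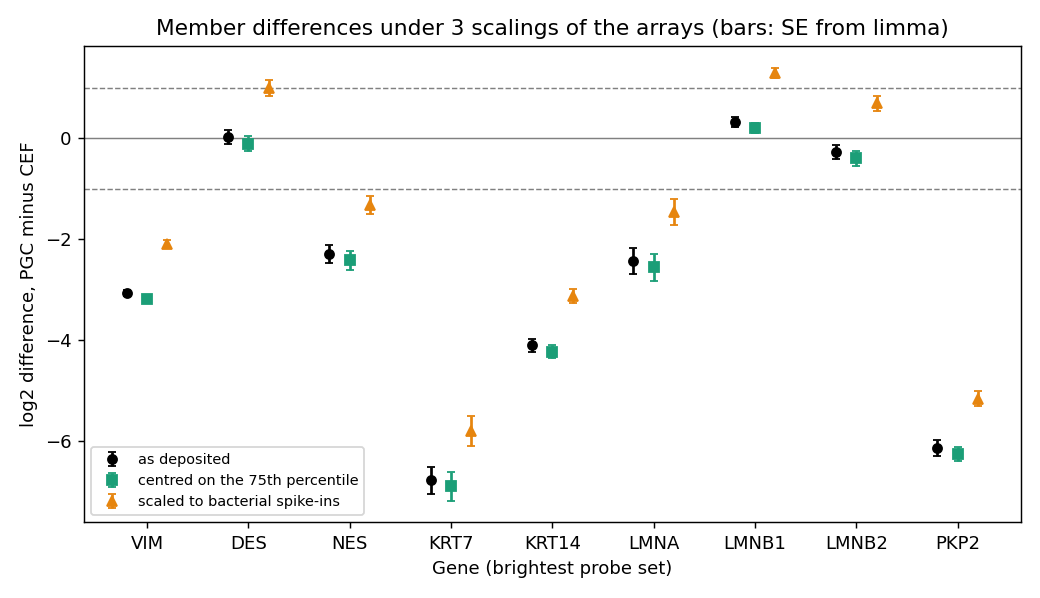
Difference PGC minus CEF on the log2 scale (vertical axis) for the 9 measured members (horizontal axis), with the deposited values (circles), after centring each array on its 75th percentile (squares) and after scaling to the bacterial controls (triangles); bars are standard errors from limma and dashed lines mark 2-fold. The 6 called members lie below -1 in all 3, while LMNB1 lies at 0.33 with the deposited values and at 1.30 after control scaling.

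Genes with the most similar pattern were sought for VIM, LMNA and PKP2 among 13000 other genes, as the smallest root mean square distance over the 6 arrays between log2 values centred on each gene's own mean. For VIM they were EXT1, a heparan sulphate polymerase (distance 0.032), DIO3, which inactivates thyroid hormone (0.041), and SLC25A4, a mitochondrial nucleotide carrier (0.058). For LMNA they were the small GTPase RAB7B (0.152), the kinase DYRK2 (0.205) and RAI2 (0.214). For PKP2 they were the matricellular protein WISP1 (0.064), the collagen chain COL6A3 (0.122) and the peptide EDN2 (0.139). All 9 were higher in CEF, as the choice by likeness fixes.

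Some markers of further cell types were called, against 17.6% of all genes called towards PGC and 14.9% towards CEF. The counts of the neural list and of the erythroid and thrombocyte list were not above these shares. Of 7 measured leukocyte genes 1 was higher in PGC and 6 were higher in CEF, with a summed linear level of 83.1 to 88.6 in PGC and 199 to 469 in CEF, and PTPRC, the leukocyte antigen CD45, averaged 2.55 in PGC and 6.98 in CEF. Of 10 endothelium genes 0 were called towards PGC and 3 towards CEF, and the sum was 54.3 to 56.2 in PGC and 184 to 280 in CEF. ERG averaged 1.29 in PGC, under background, and 7.28 in CEF, and weighed most in that CEF sum. CDH5, TEK and EMCN lay under background in both cell types, and KDR was not called. Of 9 neural genes 1 was called towards PGC and 0 towards CEF, with 1498 to 1642 in PGC and 344 to 548 in CEF. The called gene, ELAVL4, averaged 9.84 in PGC and 3.45 in CEF and weighed most in that PGC sum. Of 7 erythroid and thrombocyte genes 1 was called towards PGC and 0 towards CEF, with 98.3 to 112 in PGC and 60.3 to 84.3 in CEF. The called gene, CA2, averaged 5.99 in PGC and 4.19 in CEF and weighed most in that PGC sum. HBA1 averaged 3.87 in PGC and 4.26 in CEF and was not called. At an unadjusted p under 0.05 by limma, 1 endothelium gene lay towards PGC, and 2 neural and 2 erythroid genes lay towards CEF, of which treat called 0. After control scaling 1 endothelium gene was called towards PGC and 2 towards CEF, and 4 neural genes towards PGC. Of the leukocyte genes 1 was then called towards PGC and 4 towards CEF. With that scaling 40.5% of all probe sets were called towards PGC and 4.58% towards CEF. Vimentin and nestin are made by several of these cell types, and the part of such cells in the member differences was not tested.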

How the data were processed

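Total RNA of 3 PGC and 3 CEF samples had been labelled as biotinylated cRNA and measured on Affymetrix chicken arrays, per the labels' protocols. The deposited table holds log2 expression for 38535 probe sets, the log2 scale being read from the values themselves. MAS5 and GCOS are named, without a role, in the submitters' processing notes. How arrays were normalized is not given in the sources used here. Precision is limited by the number of arrays, among other things.

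Values were used as deposited. After 96 array controls were left out, limma 3.58.1 under R 4.3.3 was fitted (intensity trend, cell type as the only term, 4 residual degrees of freedom). The script was tested on simulated data. The background level was the 95th percentile of 687 non-chicken probe sets without a symbol. Where the lower cell type was under it, folds are "at least". Gene names are those of the array annotation (27178 probe sets with 1 symbol, 177 with several and 11180 with none), and RefSeq (GRCg7b) served for names and gene order. Members and lists were chosen with earlier results of these data known. From each partner list the rule names the 4 called genes with the largest difference, up to 3 called the other way and up to 3 bright ones not called.

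The labels call the replicates biological. Alternatives were 3 other scalings, a filter on dim probe sets, limma without a trend, limma's treat, a replicate block, leaving out each array, and the mean of a gene's probe sets.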

Additional observations from a re-analysis of the deposited data

How the results depend on the processing

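The 6 called members were called towards CEF under each of the 14 alternatives. The other member genes were not called in any, except LMNB1, which was called towards PGC after control scaling (1.30). Across the 14, differences ran from -7.11 to -5.79 for KRT7, -6.25 to -5.16 for PKP2, -4.22 to -3.13 for KRT14, -3.19 to -2.09 for VIM, -2.60 to -1.45 for LMNA and -2.46 to -1.32 for NES. Probe sets called numbered 17324 after control scaling and 5664 by limma's treat against 2-fold, against 9469 with the deposited values, and 9297 to 9703 without 1 array. The labels give the arrays a shared replicate number and no batch. Deviations of same-numbered arrays correlated at -0.036, -0.014 and 0.0088, and not every array correlated best with its own number. With 3 arrays per cell type such correlations cannot exclude shared handling. With a replicate block 9498 probe sets were called, and no member's call changed. Genes called over the 5 partner lists numbered 29, against 18 by treat and 19 with the mean of a gene's probe sets, and 25 to 30 without 1 array. By treat the nuclear envelope list had 5 and the linker and chaperone list 3, against 10 and 5. With the mean of probe sets the other filament proteins had 3, the desmosome list 5 and the nuclear envelope list 6, against 6, 8 and 10. After control scaling calls towards PGC and CEF were 4 and 3 for the other filament proteins (1 and 5 with the deposited values), 9 and 2 for the desmosome list (4 and 4), 10 and 1 for the nuclear envelope list (6 and 4), 2 and 3 for the linkers and chaperones (0 and 5) and 2 and 0 for the lamin-processing enzymes (0 and 0). Fewer calls by treat follow from its stricter test, and the moves of calls after control scaling from its shift of all differences towards PGC. For the mean of probe sets and for leaving out arrays the cause was not tested.

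Signs turned for values that were not called. DES turned after 75th-percentile centring (-0.10), quantile normalization (-0.13), without PGC replicate 1 (-0.00075), without CEF replicate 3 (-0.054, the range without 1 array being -0.054 to 0.070) and as a mean of probe sets (-0.061). After control scaling LMNB2 turned to 0.70, the dimmer DES probe set to 0.83, KRT75 to 0.70, NEFL to 0.47, CTNNB1 to 0.34, TPR to 0.44, FNTA to 0.66 and BAG3 to 0.032. After 75th-percentile centring KRT24 turned to -0.0062, PNN to -0.066, TMPO to -0.036 and ZMPSTE24 to -0.025. Quantile normalization turned PNN to -0.0049. Without CEF replicate 2 KRT24 came to -0.0031, PNN to -0.0067 and ZMPSTE24 to -0.0054, and without CEF replicate 3 PNN came to -0.044. The ranges without 1 array were -0.0031 to 0.20 for KRT24, -0.044 to 0.22 for PNN and -0.0054 to 0.23 for ZMPSTE24. As a mean of probe sets KRT24 turned to -0.13 and TPR to 0.041. In the partner lists, calls towards CEF ended after control scaling for KRT23 (-0.10), IFFO1 (-0.42), PKP4 (-0.064), CTNNA1 (-0.11), SYNE1 (-0.10), SYNE3 (-0.39), TMEM43 (-0.30), FAM83H (-0.30) and CRYAB (-0.25). In the marker lists, such calls went from 5 to 1 for muscle, 6 to 4 for leukocytes, 3 to 2 for endothelium and 1 to 0 for epithelium. Brightness near background limits LMNA and PKP2 in PGC.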
